A study of Mus musculus with 19 samples.

Results

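Fibroblasts of the leptomeninges were followed through 10 of their genes across the layers of adult mouse primary somatosensory cortex (S1), namely Col1a1, Col1a2, Dcn, Lum, Slc22a6, Slc6a13, Slc13a4, Aldh1a2, Ptgds and Igf2. They were taken by name, as genes known from these cells and with earlier results of these data in view, so the counts below describe them and are no independent evidence. All 10 were among the 24130 genes listed in at least 1 of the 7 S1 libraries. The comparison was of the most superficial segment, A, with each other segment, and then of the deepest segment, F, with those between. Ptgds, Col1a1, Col1a2, Slc22a6, Dcn, Igf2, Aldh1a2, Slc6a13 and Slc13a4 were higher in A than in every other library, by 3.17-fold to 32.9-fold depending on gene and library, and Lum was not.

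The leptomeninges are the pia mater and the arachnoid, thin membranes that cover the brain and enclose the cerebrospinal fluid. The pia lies directly on layer 1 and follows vessels into the cortex. Its fibroblasts lay down fibrillar collagen and small leucine-rich proteoglycans, make retinoic acid and insulin-like growth factor, and carry transporters for organic anions, sulfate and amino acids. Several of these genes are also used elsewhere in the brain: oligodendrocytes make Ptgds, and the choroid plexus makes Igf2 and Slc13a4.

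The libraries were of polyadenylated RNA from untreated male C57BL/6 mice (C57BL/6J by the methods), 56 days old. Segments were microdissected from superficial to deep and hold mostly layers 1 to 3 (A), layer 4 (B), the upper and the lower part of layer 5 (C and D), layer 6 (E) and layer 6b (F). A, C, D, E and F were each 1 library from a pool of 8 mice, while B1 and B2 were pools of 4 littermates each. By the methods, all segments came from the same 8 mice, so B1 and B2 differ by litter. Samples of dorsal and lateral cortex were not analysed here. With B1 and B2 the only replicates, the p of a contrast between segments measures the spread between those libraries, and that of a curve over segments measures the spread around it. Estimated depth was lowest in A, with 31.3 M fragments, and highest in B2, with 74.9 M, and mitochondrial genes took from 5.03% of the summed FPKM in F to 21.8% in A. FPKM, the count of fragments scaled to transcript length and library size, is a level per length, so it can be set side by side between genes. Each FPKM came with a 95% interval that covers the estimate within a library, not the variation between mice. Outside segment B no segment has a second library, so a difference between segments has no replicate check of its own. In tissue libraries such as these, fewer cells of a type and less RNA per cell cannot be told apart.

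Because these genes were high together in A, the bases just upstream of 4 of them are shown, from RefSeq on GRCm38.p6, each 250 bases long, 5′ to 3′ on the strand of the gene and ending at the base before its start. They are Ptgds, the gene of highest level (chr2:25469750-25469999, minus strand), Col1a2, the collagen with an entry (chr6:4505368-4505617, plus strand), Slc6a13, whose ratio of A to the other libraries was among the highest (chr6:121300038-121300287, plus strand), and Slc13a4, which was also higher in F than in B to E (chr6:35308127-35308376, minus strand). Capitals mark the CCAAT box, the GC box (GGGCGG) and a TATA-like motif (TAAATA), each on either strand. No marked bases overlap in these 4 windows.
Ptgds: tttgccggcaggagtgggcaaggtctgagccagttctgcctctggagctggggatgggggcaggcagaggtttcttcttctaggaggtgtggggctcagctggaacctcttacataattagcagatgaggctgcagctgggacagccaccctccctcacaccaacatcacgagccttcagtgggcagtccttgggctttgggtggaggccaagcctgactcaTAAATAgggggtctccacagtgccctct
Col1a2: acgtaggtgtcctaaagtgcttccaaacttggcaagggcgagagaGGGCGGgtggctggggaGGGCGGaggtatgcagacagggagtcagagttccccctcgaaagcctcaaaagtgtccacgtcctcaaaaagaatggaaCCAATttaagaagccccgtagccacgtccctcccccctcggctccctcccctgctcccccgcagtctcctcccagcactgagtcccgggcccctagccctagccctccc
Slc6a13: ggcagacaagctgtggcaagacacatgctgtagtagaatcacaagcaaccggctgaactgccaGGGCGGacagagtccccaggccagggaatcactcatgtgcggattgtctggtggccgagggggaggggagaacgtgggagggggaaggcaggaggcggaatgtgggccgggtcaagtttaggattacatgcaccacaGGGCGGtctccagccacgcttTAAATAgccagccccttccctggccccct
Slc13a4: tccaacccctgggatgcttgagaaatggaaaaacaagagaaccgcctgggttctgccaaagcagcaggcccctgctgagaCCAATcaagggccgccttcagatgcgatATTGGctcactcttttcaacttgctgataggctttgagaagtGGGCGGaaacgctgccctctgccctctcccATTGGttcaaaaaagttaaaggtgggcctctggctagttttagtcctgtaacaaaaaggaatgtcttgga

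Upstream windows were found for 7 of the 10 genes, 12 windows in all since Igf2 has 4 and Slc6a13 has 3; Col1a1, Dcn and Lum had no entry. CCAAT, searched on both strands, was in 6 of the 12 windows and in 33.8% of 32851 windows of all genes, and GGGCGG was in 5 of the 12 and in 32.7% of all. The letters TATAAA were in 0 of the 12, against 12.4% of all windows. TAAATA, a motif chosen after these sequences were read, was in 3 of the 12, against 12.7% of all. In Ptgds and in the first window of Slc6a13 it began 28 and 29 bases before the start. The windows were unlike in base composition: Aldh1a2 held 40 CpG pairs at 77.6% GC and Slc22a6 held 0 at 48.4%, with medians of 6 and 52.4% over all windows. A match is a description of letters only.

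Of the 10 genes, 9 had a 95% interval in A that lay above the interval of every other library, a criterion met by 13.9% of the 17844 genes tested, those whose mean over the 7 libraries reached 0.1 FPKM. All 10 genes also reached it over the 6 libraries other than A. The same 9 genes were at least 2-fold above their highest other library, against 6.99% of all genes. Of these, 6 genes, Ptgds, Col1a1, Col1a2, Slc22a6, Aldh1a2 and Slc6a13, were at least 4-fold above it, against 1.9% of all genes. If the FPKM of a gene are summed over the 6 segments, with B as the mean of its 2 libraries, A held a median of 62.1% for the 10 genes and of 13.5% for all genes tested. Excluding Lum at 12.2%, the share in A ran from 50.1% for Igf2 to 76.1% for Slc22a6.

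**Figure D1:**
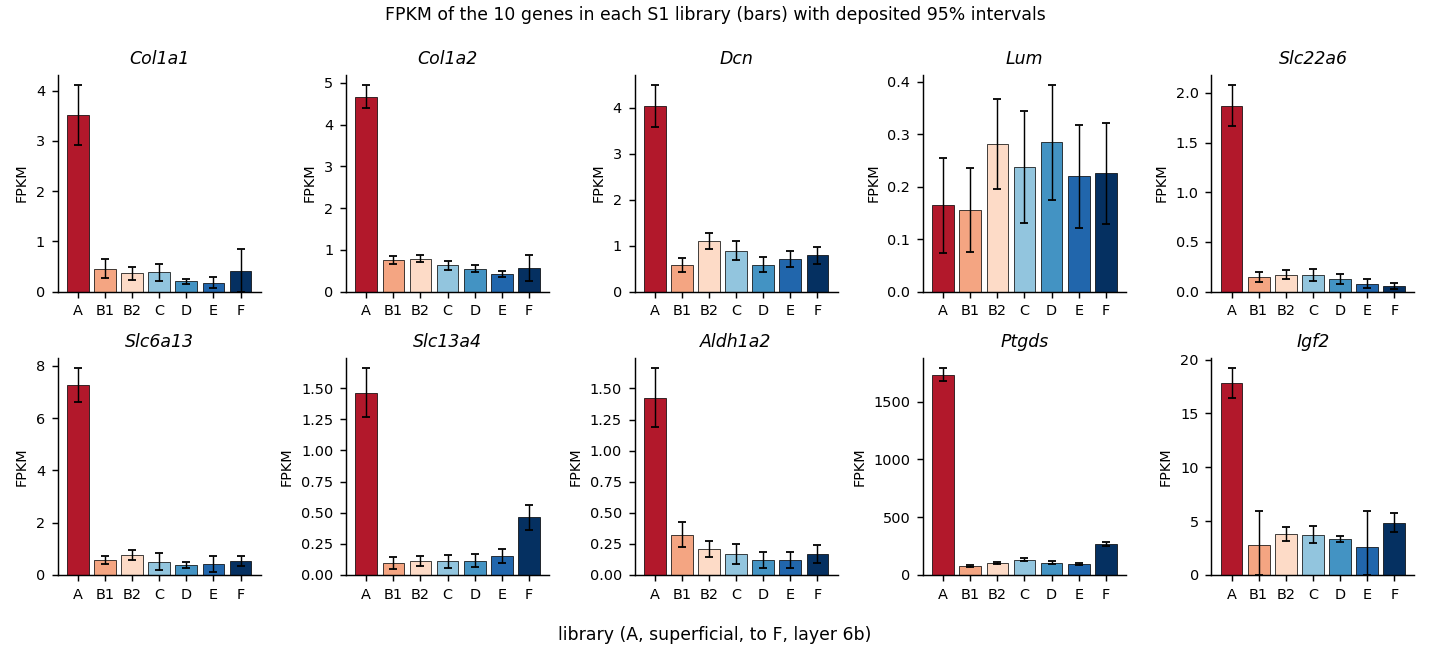
FPKM (y axis, linear from 0, a scale for each gene) of the 10 genes in the 7 S1 libraries (x axis), as bars with the deposited 95% intervals. The bar of A stands above all others in 9 panels, while in the panel of Lum all intervals overlap that of A.

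Among the matrix genes, the collagen chains were both several-fold higher in A. Col1a1 and Col1a2 encode the chains of type I collagen, the main fibrillar collagen of connective tissue. Col1a1 (ENSMUSG00000001506, chr11:94797538-94814356 on mm9) stood at 3.52 FPKM in A (95% interval 2.91 to 4.12). Levels elsewhere were 0.458 in B1 and 0.363 in B2 (layer 4), 0.38 in C and 0.208 in D (layer 5), 0.179 in E and 0.418 in F. All other libraries were low, and among them only B1 and D had intervals apart. The interval of F ran from 0 to 0.849 FPKM, so F cannot be placed against B, C, D or E. A was 7.67-fold above B1, its nearest library, and 19.6-fold above E. Col1a2 (ENSMUSG00000029661, chr6:4455493-4491543 on mm9) stood at 4.67 FPKM in A (4.39 to 4.95). In layer 4 it was at 0.75 (B1) and 0.783 (B2), in layer 5 at 0.626 (C) and 0.549 (D), and deeper at 0.422 (E) and 0.56 (F). After A, its highest values were those of the layer 4 libraries, which overlapped each other, and its lowest was that of E, whose interval of 0.344 to 0.501 FPKM lay below those of B1, B2 and C. The ratio of Col1a1 to Col1a2 was 0.752 in A and from 0.379 in D to 0.746 in F elsewhere.

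The small leucine-rich proteoglycans parted from each other. Decorin, encoded by Dcn, binds collagen fibrils and regulates their assembly. Dcn (ENSMUSG00000019929, chr10:96942245-96980777 on mm9) stood at 4.04 FPKM in A (3.59 to 4.5). Further down, B1 had 0.584 FPKM, B2 1.11, C 0.887, D 0.585, E 0.71 and F 0.788. A was 3.66-fold above B2 and 6.93-fold above B1, and B2 lay above B1, D and E. Lumican, encoded by Lum, is a keratan sulfate proteoglycan of the same family. Lum (ENSMUSG00000036446, chr10:97028437-97035337 on mm9) stood at 0.164 FPKM in A (0.0731 to 0.255). Levels elsewhere were 0.155 in B1 and 0.282 in B2 (layer 4), 0.237 in C and 0.285 in D (layer 5), 0.22 in E and 0.226 in F. All 7 intervals of Lum overlapped each other. The gene rested on an estimated 8.0 fragments in A and 36.5 in B2. The FPKM of Dcn was 24.6 times that of Lum in A and 2.06 to 3.92 times it in the other libraries.

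Slc22a6 and Slc6a13 had the highest ratios of A to the next library of the 10 genes. Slc22a6 encodes OAT1, which exchanges organic anions against dicarboxylates. Slc22a6 (ENSMUSG00000024650, chr19:8692669-8702789 on mm9) stood at 1.87 FPKM in A (1.66 to 2.08). In layer 4 it was at 0.148 (B1) and 0.169 (B2), in layer 5 at 0.164 (C) and 0.126 (D), and deeper at 0.0811 (E) and 0.0568 (F). A was 11-fold above B2 and 32.9-fold above F, the largest ratio of any of the 10 genes to any library. The interval of F, 0.024 to 0.0896 FPKM, lay below those of B1, B2 and C. Slc6a13 encodes GAT2, which carries GABA and taurine. Slc6a13 (ENSMUSG00000030108, chr6:121250245-121287751 on mm9) stood at 7.27 FPKM in A (6.62 to 7.91). Further down, B1 had 0.574 FPKM, B2 0.761, C 0.499, D 0.368, E 0.425 and F 0.536. A was 9.55-fold above B2 and 19.7-fold above D, and among the other libraries only B2 and D had intervals apart.

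Slc13a4, which encodes a sodium-coupled sulfate transporter, was the transporter with a level in F that stood apart. Slc13a4 (ENSMUSG00000029843, chr6:35217957-35258131 on mm9) stood at 1.46 FPKM in A (1.27 to 1.66). Levels elsewhere were 0.0962 in B1 and 0.115 in B2 (layer 4), 0.111 in C and 0.114 in D (layer 5), 0.153 in E and 0.462 in F. A was 15.2-fold above B1 and 3.17-fold above F. B1, B2, C, D and E overlapped each other and F, at 0.363 to 0.561 FPKM, lay above all of them and below A.

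Of the enzymes, Aldh1a2 encodes RALDH2, which makes retinoic acid from retinaldehyde. Aldh1a2 (ENSMUSG00000013584, chr9:71063596-71144050 on mm9) stood at 1.42 FPKM in A (1.19 to 1.66). In layer 4 it was at 0.323 (B1) and 0.211 (B2), in layer 5 at 0.167 (C) and 0.124 (D), and deeper at 0.12 (E) and 0.169 (F). A was 4.41-fold above B1, the nearest library, and 11.8-fold above E. B1 and B2 overlapped each other, and B1, at 0.221 to 0.426 FPKM, lay above D and E. Ptgds encodes lipocalin-type prostaglandin D synthase, a secreted protein of the cerebrospinal fluid. Ptgds (ENSMUSG00000015090, chr2:25322229-25325566 on mm9) stood at 1733 FPKM in A (1677 to 1788). Further down, B1 had 74.6 FPKM, B2 101, C 133, D 106, E 96.5 and F 270. A was 23.2-fold above B1 and 6.42-fold above F, and F lay above B1, B2, C, D and E. Per length it was the most abundant of the 10 by far, with 97.6% of their summed FPKM in A and 92.7% to 97.1% elsewhere.

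Igf2 encodes insulin-like growth factor 2, a secreted growth factor of development. Igf2 (ENSMUSG00000048583, chr7:149836673-149845394 on mm9) stood at 17.8 FPKM in A (16.4 to 19.2). Levels elsewhere were 2.77 in B1 and 3.8 in B2 (layer 4), 3.71 in C and 3.33 in D (layer 5), 2.57 in E and 4.84 in F. The intervals of B1 and E reached 0, with upper bounds of 5.94 and 5.96 FPKM, so these libraries cannot be placed against the others below A. A was 3.68-fold above F, the nearest library, and F lay above D alone.

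**Figure D2:**
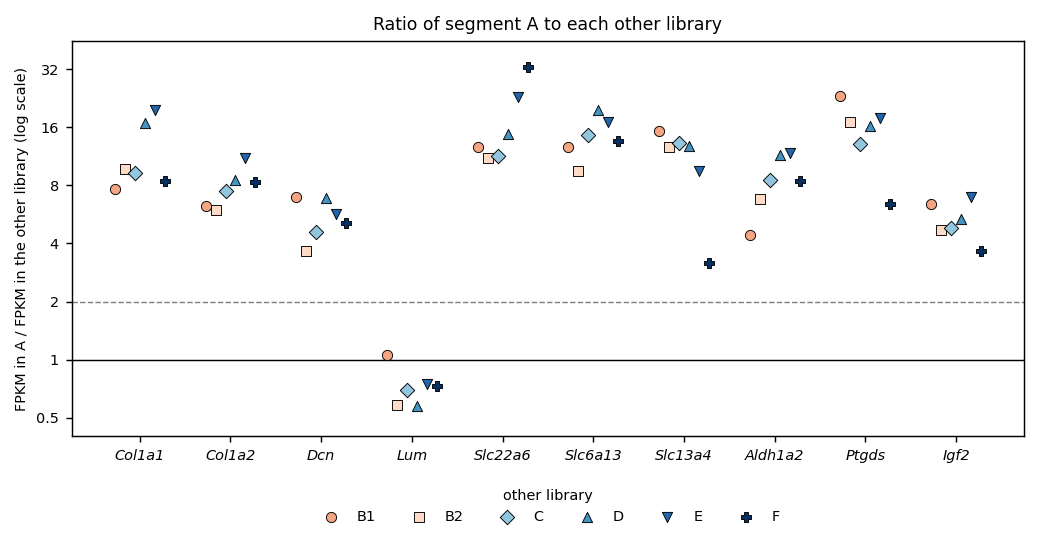
FPKM in A divided by the FPKM in each of the 6 other libraries (y axis, log scale; the line is at 1, the dashed line at 2) for the 10 genes (x axis), with a symbol for each library. Slc22a6 reaches 32.9 against F and Slc13a4 comes down to 3.17 against F, while Lum stays between 0.577 and 1.06.

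In limma on log2(FPKM + 0.1), with the spread taken from B1 and B2, the contrast of A with the mean of the other 5 segments gave log2 differences of 3.78 ± 0.32 (SE) for Ptgds, 3.64 ± 0.29 for Slc6a13, 3.21 ± 0.20 for Slc22a6 and 3.16 ± 0.26 for Col1a1. The next were Col1a2 at 2.82 ± 0.24, Slc13a4 at 2.56 ± 0.21, Aldh1a2 at 2.53 ± 0.29, Igf2 at 2.33 ± 0.30 and Dcn at 2.29 ± 0.45. Lum was at -0.34 ± 0.33 (unadjusted p = 0.383 in limma). The median of all genes tested was -0.28 on the same scale and that of the 10 genes was 2.69. At an adjusted p of 0.05 in limma 0 of the 17844 genes tested passed in either direction (0.0% called higher in A), the smallest adjusted p being 0.0623. At an unadjusted p under 0.05 in limma, 9 of the 10 genes were higher in A, against 11.6% of all genes, with adjusted p from 0.0849 to 0.0886. After centring the log2 values in bins of transcript GC content, the same 9 genes passed in limma with adjusted p from 0.0062 to 0.0110, and 15.5% of the 16690 genes with a GC value passed as higher in A.

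A curve over segment position, with a linear and a quadratic term in limma, was passed by 9 of the 10 genes with A above the mean of the others, against 8.34% of all genes. The adjusted p in limma ran from 0.0114 for Col1a1 to 0.0476 for Ptgds, and was 0.623 for Lum. Without B2 the adjusted p in limma was 0.0662 for Ptgds, 0.0855 for Dcn and 0.0675 for Igf2, and 6 genes passed. All 9 calls rested on A: with that library left out, an alternative chosen after seeing the data, 0 of the 10 passed in limma at an adjusted p of 0.05, against 7.86% of all genes. At an unadjusted p under 0.05 in limma there were 3 (Slc22a6, Aldh1a2 and Slc13a4), against 32.9% of all genes. The shares without A count both directions. With A kept, the like share at an adjusted p of 0.05 was 36.5% of all genes, so calls were also lost over all genes.

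Below A the genes did not follow a common course. Slc22a6 went from 0.159 FPKM as the mean of B to 0.0568 in F, a log2 difference of -0.72 on the log2(FPKM + 0.1) scale, and Aldh1a2 and Col1a2 were at -0.43 and -0.39 between the same segments. Slc13a4 and Ptgds went the other way, with 1.45 and 1.63. Dcn, Col1a1 and Lum lay between -0.03 and 0.06, Slc6a13 was at -0.26 and Igf2 at 0.56. F lay above every library of B, C, D and E for 2 of the 10 genes, Ptgds and Slc13a4, and above E for the same 2, against 13.8% and 22.5% of all genes. F was 2.8-fold above E for Ptgds and 3.01-fold for Slc13a4. The contrast of F with the mean of B, C, D and E in limma was 1.37 ± 0.32 (unadjusted p = 0.0273, adjusted p = 0.359) for Ptgds and 1.35 ± 0.21 (unadjusted p = 0.00926, adjusted p = 0.307) for Slc13a4. Of the 17844 genes, 0 passed that contrast in limma at an adjusted p of 0.05 (0.0% called higher in F), and 8.05% of them were higher in F at an unadjusted p under 0.05.

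**Figure D3:**
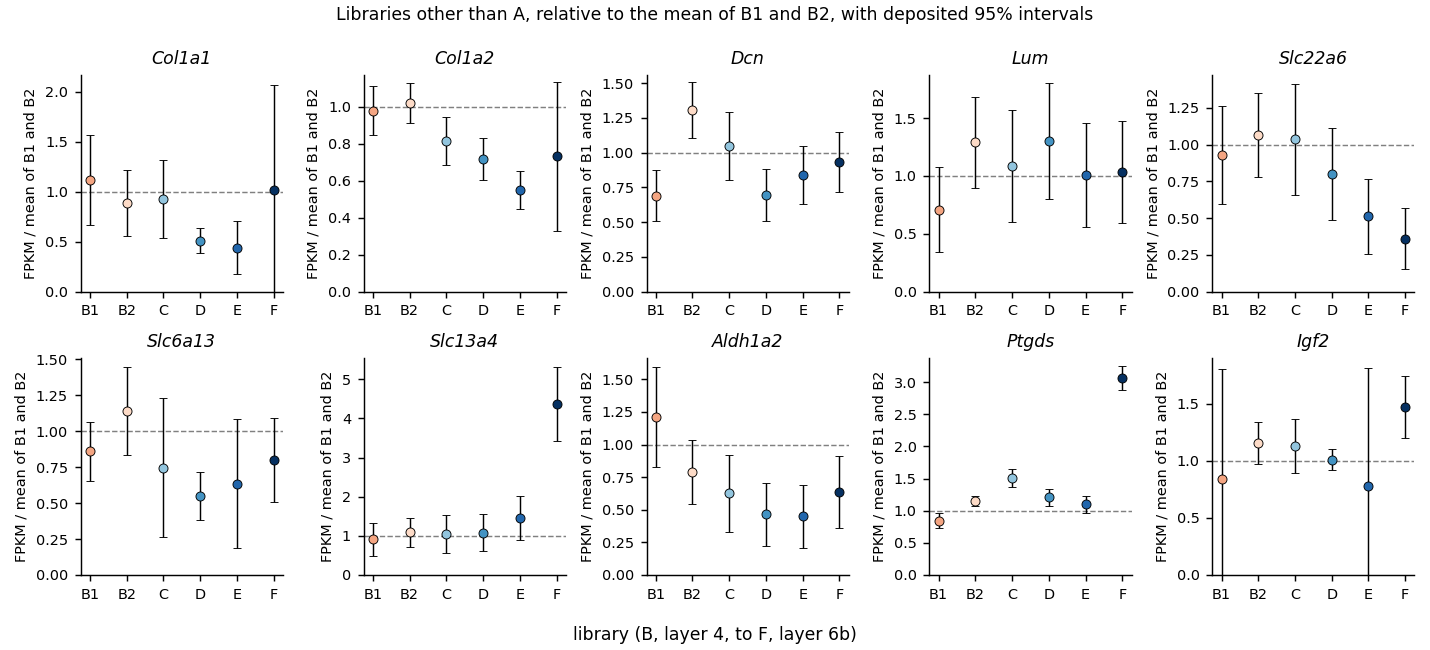
FPKM in the 6 libraries other than A (x axis) divided by the mean of B1 and B2 (y axis, linear from 0; dashed line at 1), with the deposited 95% intervals scaled in the same way. Slc13a4 and Ptgds lie highest in F, Slc22a6 has its lowest value there, and the intervals of Igf2 in B1 and E and of Col1a1 in F reach 0.

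The summed levels of oligodendrocyte genes and of choroid plexus genes were highest in F. For all 12 oligodendrocyte genes, F lay above every library of B to E (13.8% of all genes). Their summed level went from 344 FPKM in A through 875 in B1 to 13002 in F. Myelin basic protein, Mbp, the most abundant of them, was at 172 FPKM in A, 2291 in E and 6954 in F. The choroid plexus genes, 9 listed, summed to 28.0 FPKM in A, between 1.82 and 2.22 in the libraries of B and C, and 8.52 (D), 67.8 (E) and 204 (F) below. Most of that sum in F was Ttr, the transthyretin gene, with 25.4 FPKM in A and 199 in F, and Slc4a5 was under 0.1 FPKM on average. Of 8 choroid plexus genes tested, F lay above every library of B to E for 4 (13.8% of all genes). Otx2 and Prlr had their highest values in A, at 0.272 and 0.286 FPKM against 0.227 and 0.215 in F. Their intervals in A, 0.0191 to 0.524 and 0 to 0.818 FPKM, overlapped those in F. Otx2 reached the filter only through A, so its high value there was built in. Below A, Ptgds and Slc13a4 were highest in the segment where the summed levels of both lists were highest. Above F the courses differed. From C to E the oligodendrocyte sum went from 1716 to 4268 FPKM, while Ptgds went from 133 to 96.5. The choroid plexus sum rose to 67.8 FPKM in E, while Slc13a4 stayed at 0.0962 to 0.153 in B to E. The part of these cells in the levels of Ptgds and Slc13a4 was not tested.

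Between the libraries of layer 4, the only replicates, the median log2 difference, B2 minus B1, was 0.244 for the 10 genes and 0.0373 for all genes tested. B2 lay above B1 for Ptgds and Dcn, 1.36-fold and 1.89-fold, against 25.3% of all genes, and B1 above B2 for 0, against 23.1%. The ratio of B2 to B1 ran from 0.651 for Aldh1a2 to 1.89 for Dcn. The smallest ratio of A to another library among the 9 genes, 3.17, was larger than the largest difference between B1 and B2. Those libraries do not measure the spread of A, which has 1 library.

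**Figure D4:**
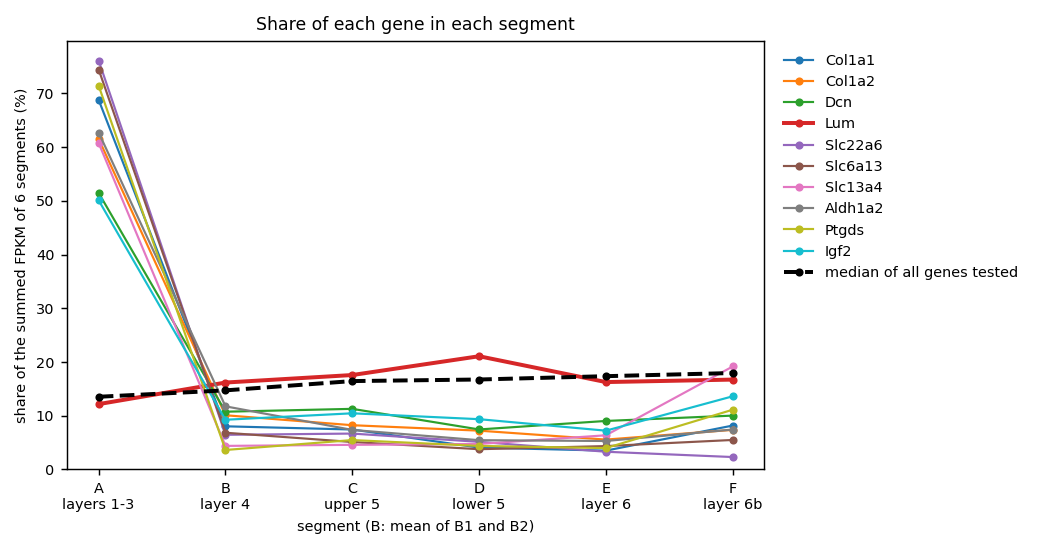
Share of each gene in each segment (y axis, percent of the FPKM summed over 6 segments, B as the mean of B1 and B2) from A to F (x axis), with the median of all genes tested as a dashed black line. The 9 genes run from 50.1% to 76.1% in A, Lum (thick red line) lies at 12.2% near the median of all genes, and Slc13a4 is the highest of the 10 in F at 19.2%.

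Of the genes, 6 had a single transcript assigned to them and Col1a1 had 3 that did not part. The transcript of Col1a2 was at 0.424 FPKM in F, below the 0.56 of the gene there, and at 0.422 in E. The other 3, Ptgds, Igf2 and Slc6a13, had transcripts whose intervals moved in opposite directions in 4, 6 and 1 of the 21 pairs of libraries. For Ptgds, ENSMUST00000137417 was at 1218 FPKM in A, 71.4% of the summed transcripts, and took 15.9% in B1 and 56.3% in B2. These shares of ENSMUST00000137417 in B1 and B2 were the lowest and the highest of the 6 libraries other than A. The longest Ptgds transcript, ENSMUST00000114251, was at 97.6 FPKM in A and 105 in F, and took 5.72% in A against 36.1% to 63.9% elsewhere. For Igf2, ENSMUST00000097936 was at 12.97 FPKM in A, 72.9% of the gene, and at 0.637 to 0.747 FPKM in B2, C and F, and was not listed in B1, D or E. ENSMUST00000000033 was at 4.13 FPKM in A, from 2.86 to 3.76 in B2, C, D and F, and at 0.137 and 0.206 in B1 and E. In B1 and E, where the interval of the gene reached 0, ENSMUST00000121128 took 73.8% and 52.9%.

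Other genes of leptomeningeal fibroblasts followed in part. Of 27 tested from a list of 30, 3 (Col3a1, Crabp2 and Slc47a1) reached the filter only through their level in A, so their difference was built in and they are given by their values alone. Of the other 24, A lay above every other library for 12 (13.9% of all genes) and was at least 2-fold above for 8 (6.99% of all genes), with a median share in A of 29.6%. The curve in limma called 7 of the 24 with A higher (8.34% of all genes) and 1, Dpp4, with A lower (28.2% of all genes). For calls of the curve, here and below, A higher or lower is against the mean of the other segments on the log2 scale. A gene so called can be highest in another segment: Bmp6, 1 of the 7, was at 0.897 FPKM in A and 1.195 in F. Crabp2, which binds retinoic acid in the cell, was at 2.36 FPKM in A and at most 0.0904 elsewhere. Fmod, the proteoglycan fibromodulin, was at 6.14 FPKM in A and 0.171 to 0.451 elsewhere (adjusted p = 0.0155 in limma). Serping1, the inhibitor of complement C1, was at 4.64 FPKM in A and 0.342 to 0.659 elsewhere (adjusted p = 0.0146 in limma). Slc47a1, an exporter of organic cations, was at 1.04 FPKM in A and at 0 or not listed in the other 6 libraries. Igfbp6, the most abundant of the list, was at 79.8 FPKM in A and 18.2 to 53.7 elsewhere, and the peptidase gene Dpp4 had its lowest value in A, 0.153 FPKM, against 0.365 to 1.48.

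Among the other small leucine-rich proteoglycans, 6 were tested and 4 passed the curve in limma with A higher (8.34% of all genes): Fmod, Bgn, Prelp and Podn. Bgn, biglycan, was at 7.44 FPKM in A, 1.6 to 2.38 in B to E and 3.85 in F (adjusted p = 0.00756 in limma). Podn was highest in F instead, at 2.51 FPKM against 1.17 in A, and Aspn had the lowest share in A, at 0.0487 FPKM against 0.119 to 0.254. Of 18 other collagen chains tested, 16.7% passed with A higher (8.34% of all genes) and 16.7% with A lower (28.2% of all genes), 3 in each direction. Col3a1 and Col5a3, which reached the filter only through A, were not among them. Of the 3 with A higher, Col5a1 was at 0.706 FPKM in A and 1.71 in E. Col8a2, another of them, was at 0.362 FPKM in A and 0.425 in F. Col3a1, the partner of type I collagen in many tissues, was at 0.387 FPKM in A, at most 0.141 elsewhere, and at 0 or not listed in C. Col12a1 went from 0.721 in A to 4.24 in F (adjusted p = 0.0102 in limma). Col4a2, a chain of basement membranes and the most abundant of the list, was at 5.36 FPKM in A and 3.65 to 5.49 elsewhere. Among 17 genes that process collagen, 4 passed with A higher, or 23.5% against 8.34% of all genes. With A lower, 5 passed, or 29.4% against 28.2%, near the share of all genes. Adamts2, 1 of the 4, was at 1.22 FPKM in A and rose to 2.74 in F. Pcolce, the enhancer of the procollagen C-proteinase, was at 14.9 FPKM in A and 0.707 to 1.4 elsewhere (adjusted p = 0.0317 in limma). Sparc, the most abundant of these, was at 75.8 FPKM in A and 38.4 to 55.1 elsewhere, and Loxl3 was at 0 or not listed in A.

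In the retinoic acid pathway, 16 genes besides Aldh1a2 were tested, of which Crabp2 and Aldh1a3 reached the filter only through A. Of the other 14, 3 passed the curve in limma with A higher (8.34% of all genes) and 5 with A lower (28.2% of all genes). Aldh1a3, another retinaldehyde dehydrogenase, was at 0.626 FPKM in A and at most 0.103 elsewhere. Stra6, a retinol transporter of the cell membrane, was at 1.58 FPKM in A and 0.363 to 1.04 elsewhere (adjusted p = 0.0228 in limma). Cyp26b1, which degrades retinoic acid, was at 0.0755 FPKM in A, 0.308 to 0.63 in B, C and F, 1.37 in D and 1.61 in E (adjusted p = 0.0083 in limma). Rxrb, the receptor of highest level, was at 31.7 FPKM in A and 25 to 44.4 elsewhere.

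In the insulin-like growth factor system, 12 other genes were tested. The curve in limma was passed by 2 with A above the mean of the others, or 16.7% against 8.34% of all genes. It was passed by 5 with A below that mean, or 41.7% against 28.2%. Of the 2, Igf1r was highest in F, at 12.8 FPKM against 9.18 in A. Igfbp2, a binding protein, was at 34.8 FPKM in A and came down to 6.46 in F (adjusted p = 0.00705 in limma), and Igf2r, which clears the growth factor, was at 1.65 in A and 2.87 to 4.9 elsewhere (adjusted p = 0.0134 in limma). Irs1 had the lowest share in A of the list, at 0.451 FPKM against 1.11 to 2.08, and Igfbp4, the most abundant, was at 65.7 in A and 33.8 to 94.9 elsewhere. H19, the imprinted neighbour of Igf2, named after its values were seen, was at 0.43 FPKM in A and at most 0.0448 elsewhere, below the filter on the mean. Its interval in A, 0.0211 to 0.839 FPKM, overlapped those of B1 and B2. In the prostaglandin pathway 0 of 14 other genes passed with A higher (8.34% of all genes) and 4 passed with A lower, or 28.6% against 28.2% of all genes. Ptges3, with the highest share in A of these, was at 7.09 FPKM in A and 1.72 to 7.28 elsewhere, and Ptger3, a receptor of prostaglandin E2, was at 0.212 in A and 3.46 in F (adjusted p = 0.081 in limma). Ptges2, the most abundant besides Ptgds, was at 14.2 FPKM in A and 15.3 to 19.4 elsewhere.

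Of 10 other organic anion and sulfate transporters tested, Slc47a1 reached the filter only through A. Of the other 9, 1 passed the curve in limma with A higher (8.34% of all genes) and 2 with A lower (28.2% of all genes). The 1 with A higher, Slc13a3, was at 5.63 FPKM in A and 4.66 in F, with intervals that overlapped. Slc22a8, OAT3, which often works beside OAT1, was at 5.88 FPKM in A and 1.57 to 2.38 elsewhere (adjusted p = 0.0544 in limma). Slc26a11 had the lowest share in A, with 0.421 FPKM against 2.47 in F, and Slco1c1, the most abundant, was at 10.4 in A and 11.5 to 15 elsewhere. Of 5 other transporters of the GABA and taurine group, 0 passed with A higher (8.34% of all genes) and 2 passed with A lower (28.2% of all genes), among them Slc6a11, at 9.86 FPKM in A and 22.6 to 32.2 elsewhere (adjusted p = 0.0409 in limma). Slc6a12, the betaine and GABA transporter, was at 0.804 FPKM in A and 0.0136 to 0.0497 elsewhere, and reached the filter only through A.

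**Figure D5:**
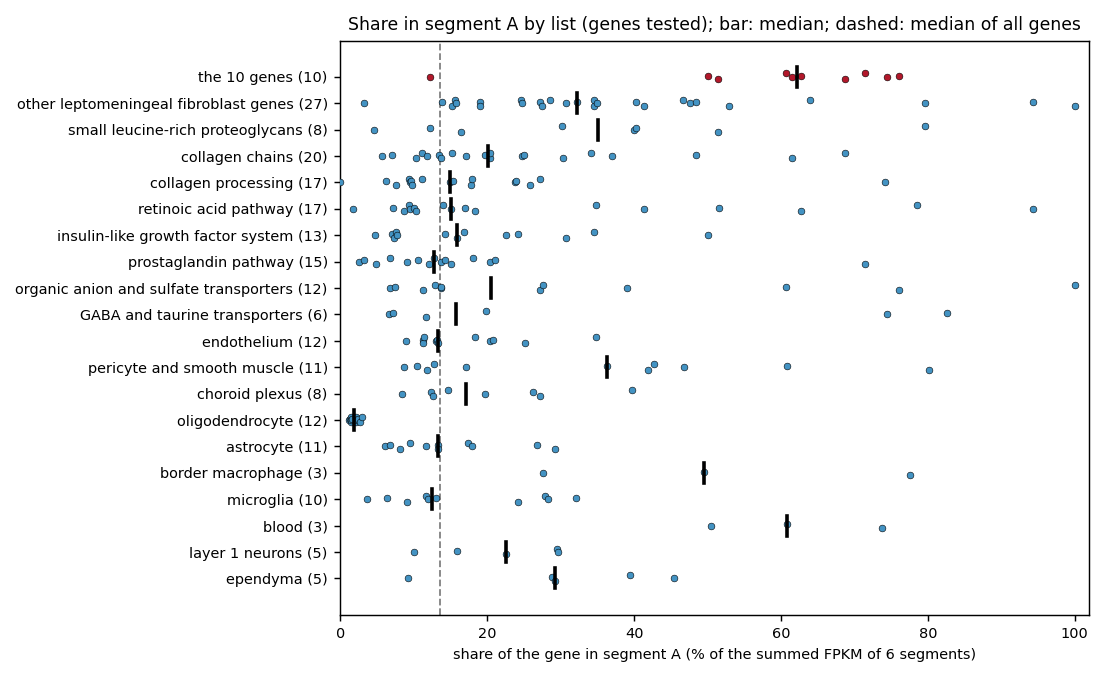
Share in A (x axis, percent of the FPKM summed over 6 segments) of each gene tested, by list (y axis, number tested in parentheses), with the median of each list as a black bar and the median of all genes tested, 13.5%, as a dashed line. The 10 genes have a median of 62.1%, blood genes 60.9%, pericyte and smooth muscle genes 36.3%, and oligodendrocyte genes 1.84%. Without Cnn1, which reached the filter only through A, the median of pericyte and smooth muscle genes is 26.7%. Genes of other lists that reached the filter only through A are also drawn.

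Markers of blood and of smooth muscle were also higher in A, as was the summed level of border macrophage genes. Of 5 blood genes listed 3 were tested, and all 3 had intervals in A above every other library (13.9% of all genes). The 5 summed to 739 FPKM in A and 66.6 to 97.2 elsewhere. Hba-a2, the most abundant, was at 462 FPKM in A and 48.2 to 73.7 elsewhere. Of 11 pericyte and smooth muscle genes, A lay above every other library for 6 (13.9% of all genes), 1 of which, Cnn1, reached the filter only through A, and their summed level was 127 FPKM in A and 48.4 to 68.8 elsewhere. The smooth muscle gene Acta2 was at 23.9 FPKM in A and 1.28 to 7.18 elsewhere. Tagln was at 14.7 in A, 4.09 and 3.22 in B1 and B2, and at 0 or not listed in C, D, E and F. The list was split. Vtn, its most abundant gene, was at 63.8 FPKM in A and 20 to 24.4 elsewhere. Pdgfrb was not high in A, at 1.97 FPKM against 2.38 to 4.13, and Rgs5, Kcnj8, Abcc9 and Cspg4 were not above every other library there. Of 12 endothelial genes, Cldn5 alone lay above every other library in A, or 8.33% against 13.9% of all genes. The summed level was 98.3 FPKM in A and 61.1 to 78.5 elsewhere, of which Cldn5 gave 51.0 in A and 15.8 to 29.5 elsewhere. Border macrophage genes, 8 listed, summed to 2.85 FPKM in A and 0.794 to 1.09 elsewhere. Of these, 3 were tested (Stab1, Pf4 and Cbr2), and Cbr2 reached the filter only through A. The other 2 were highest in A (24.4% of all genes), with a median share there of 38.5%. A lay above every other library for 1 of the 2 (13.9% of all genes). The curve in limma called 0 of the 3 tested with A higher (8.34% of all genes). Mrc1, Cd163, F13a1, Lyve1 and Ms4a7 were under the filter. Choroid plexus genes, given above, also summed higher in A than in the libraries of B, C and D. The part of blood cells, vessel cells, macrophages and choroid plexus in the levels of the 10 genes in A was not tested. Nor was that of the lowest depth and of the highest mitochondrial share.

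Microglial genes summed to 131 FPKM in A and 90.0 to 170 elsewhere, astrocyte genes to 455 and 525 to 770, and layer 1 neuron genes to 66.0 and 32.5 to 64.6. Ependymal genes summed to 10.2 FPKM in A and 3.97 to 9.48 elsewhere. All 12 oligodendrocyte genes lay below every other library in A, against 25.8% of all genes.

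Among 13023 other genes whose mean reached 1 FPKM, with a value above 0 in all 7 libraries, the 10 whose shares over the 6 segments were nearest to the mean shares of the 10 leptomeningeal genes, Lum included, by Euclidean distance, held no other leptomeningeal gene of the list. They included Hba-a2 (distance 2.47 percentage points), the haemoglobin gene Hbb-bt (2.75), ENSMUSG00000072548 (2.86), the ribosomal protein pseudogene Rpsa-ps10 (3.12), Cald1 (3.39), ENSMUSG00000062678 (3.47), the ribosomal protein gene Rpl37a (3.5), Gm13226 (3.54) and Gm6030 (3.61). Cald1, caldesmon, binds actin in smooth muscle and fibroblasts and was at 43.2 FPKM in A and 3.79 to 11.8 elsewhere. That mean, with Lum, was 58.9% in A, while the median of the 9 genes without Lum was 62.7%. The 10 leptomeningeal genes themselves lay 4.12 (Col1a2) to 51.5 (Lum) percentage points from it, farther than the genes named. Distances to a mean without Lum were not computed, and Serping1 held 63.9% in A. Genes of the list with a mean under 1 FPKM could not appear. The likeness is over 6 segments, of which 5 rest on 1 library each. Reads of ribosomal pseudogenes can be shared with their parent genes.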

How the data were processed

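RNA sequencing of 7 S1 libraries was used, with segment B in 2 of them. The authors mapped reads to mm9 with TopHat 1.0.13 and estimated FPKM with 95% intervals in Cufflinks 0.8.3 for Ensembl release 57 genes and transcripts, as deposited. The deposited transcript tables also give fold coverage, an estimated signal without scaling for depth, and the fraction of each transcript within its locus, both from the authors' Cufflinks run. Fragments were estimated here from coverage and transcript length at 50 nt a read, which overstates F since some of its runs had longer reads. The 12 samples of dorsal and lateral cortex were not analysed here.

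Genes whose mean FPKM reached 0.1 were tested in limma 3.58.1 (R 4.3.3) on log2(FPKM + 0.1), so a fold change understates that of low genes. The fits were A against the mean of 5 segments, F against B to E, and a quadratic curve over segment position, each over all 17844 genes with Benjamini-Hochberg adjustment at 0.05. The scripts were tested on simulated data. A library was called above another when their intervals did not overlap. A gene not listed in a library was given an FPKM and interval of 0 there, so a 0 can be a missing entry. In Python 3.11.15 (pandas 2.3.3, numpy 2.4.6) shares and distances were computed. Genes were named by their highest and lowest share in A, their mean FPKM and their tests, and where more passed, by their ratio in A after values were seen. A few genes that this rule names are not reported here. The 10 genes and all lists were chosen with earlier results of these data known. Gene positions are on mm9 and upstream windows on GRCm38.p6, and no position was carried between them. GC values were found for 93.5% of the genes tested. Which genes of the lists reached the filter only through A was worked out after seeing the data. Alternatives covered the pseudocount, scaling, filters, GC centring, transcript sums, interval width and left-out libraries.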

Additional observations from a re-analysis of the deposited data

How the results depend on the processing

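The count of 9 genes with A at least 2-fold higher was 9 under median of ratios scaling, transcript sums, de novo transcripts and without either layer 4 library, and the count of 9 with A above every other library was 9 with intervals 2 times as wide. F lay above E for 1 gene, Ptgds, with such intervals. The median share in A was 68.6% under median of ratios scaling, 66.3% over de novo transcripts, and 61.4% to 62.8% without a layer 4 library. For the other leptomeningeal list it was 32.2%, or 29.6% without the 3 genes that reached the filter only through A. The contrast of A, passed by 0 of the 10 genes and 0 of all genes, was passed by 5 of the 10 with a pseudocount of 1 and by 5 with a mean of at least 1 FPKM, and by 9 after GC centring. Over all genes it was passed by 137 with a pseudocount of 0.01, 141 with 1, 453 without a filter, 3122 where the mean reached 1 FPKM, 27 among classifiable genes, those with narrow intervals, and 4182 after GC centring. The contrast of F was passed by 16 genes under that higher filter and 412 after GC centring, with 0 of the 10 in each. The curve, passed by 9 of the 10, was passed by 5 without a filter, by 5 with a mean of at least 1 FPKM, where only 5 were tested, and by 1 among classifiable genes, where only Ptgds was tested. It was passed by 7 after GC centring, which lost Ptgds (adjusted p = 0.0655 in limma) and Igf2 (0.0501), and by 6 with a prior variance that had no trend, which lost Ptgds (0.0605), Dcn (0.0506) and Igf2 (0.0529). Leaving out a library gave 0 (without A) to 9 of the 10, with 6 without B2, and 1402 (without A) to 9200 (without B1) of all genes, against 6521. Lum was at -0.34 and, after GC centring, at 0.49 on the log2 scale, past no threshold either way. Apart from the cases above, the cause of these changes was not tested. Leaving out B1 or B2 left the contrasts of A and F with no residual degrees of freedom, so they gave no test. No paired analysis was possible because only segment B has more than 1 library.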
